A study of Mus musculus with 6 samples.

Results

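The miR-15 and miR-103 seed superfamily comprised 7 miRNAs, miR-15a, miR-15b, miR-16, miR-195, miR-497, miR-103 and miR-107, chosen by name among the 596 mouse miRNA assays of a quantitative real-time PCR array of the mouse aorta. Each name matched 1 assay, and all 7 assays gave a signal in all 6 samples. The array compared 3 EC-Dicerflox with 3 EC-DicerWT mice, to ask which aortic miRNAs depend on Dicer of endothelial cells (ECs) during early atherosclerosis. Mice of the first group were VE-Cadherin-CreERT2 Dicer1flox/flox, and those of the second group were VE-Cadherin-CreERT2 Dicer1WT/WT littermates. Both groups lacked apolipoprotein E (Apoe-/-), carried the Cre transgene and were given tamoxifen for 5 days (2 mg for each 20 g of body weight), and both were 6 to 8 weeks old when a high-fat diet (HFD) of 4 weeks began. The VE-cadherin promoter drives the Cre recombinase in ECs, whereas RNA of the whole aorta was measured. A lower value could therefore reflect fewer cells of a type or less RNA per cell, which cannot be told apart here. The array held no assay for Dicer1 mRNA, so that the deletion itself could not be checked in these samples.

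Dicer cuts miRNA hairpins into short mature strands, which guide the silencing complex to mRNAs mainly through the seed, the bases near the 5′ end. The miR-15/16 branch is best known for restraining the cell cycle through cyclins and for targeting BCL2, and miR-195 and miR-497 are made from a shared cluster. The miR-103/miR-107 branch is encoded in introns of the pantothenate kinase genes, and its members are known to target Dicer itself and to act in insulin signalling. Mature miRNAs can outlast the enzyme that made them, so that loss of Dicer in a cell need not empty it of a stable miRNA.

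The mature sequences are shown because the seed defines the superfamily and separates its branches. They were taken from RefSeq, in which all 7 names were found, with bases 2 to 8 in capitals as the seed.
miR-15a: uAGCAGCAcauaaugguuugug
miR-15b: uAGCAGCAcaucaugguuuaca
miR-16: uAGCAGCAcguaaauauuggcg
miR-195: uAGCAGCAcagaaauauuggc
miR-497: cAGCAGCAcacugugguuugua
miR-103: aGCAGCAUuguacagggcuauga
miR-107: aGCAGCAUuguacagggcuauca

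The 5 miRNAs of the miR-15/16 branch had 1 common seed, and miR-103 and miR-107 had another. Bases 1 to 7 of miR-103 were the same 7 letters as bases 2 to 8 of miR-16, so that the seeds themselves, of 7 bases each, share a run of 6 letters (GCAGCA) that lies 1 base nearer to the 5′ end in miR-103. Compared position by position over the whole strand, 5 of 22 bases were identical between miR-16 and miR-103. Within branches, miR-103 and miR-107 were identical at 22 of 23 bases and differed by G22C, with positions counted from the 5′ end and the first-named miRNA's base given first. miR-16 and miR-195 were identical at 19 of 21 bases (G10A and U11G), and miR-15a and miR-15b at 18 of 22 bases (A12C, G20A, U21C and G22A). miR-195 and miR-497 shared 12 of 21 bases, although both lie in 1 cluster. How far an assay also reads a near-identical relative is not given in the sources used here.

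Of 1679 mature mouse miRNA names in RefSeq, 10 held the seed of the miR-15/16 branch. These were the 5 members and miR-195b, miR-322-5p, miR-6342, miR-6353 and miR-6419. The seed of miR-103 was held by 2 names, both of them members. Among the 5 others, only miR-322 had an assay on the array.

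The genes of the superfamily lie in pairs or alone (coordinates of the mature strand, GRCm38.p6, with distances counted from start to start). Mir15a (chr14:61632075-61632096, minus strand) and Mir16-1 (chr14:61631936-61631957, minus strand) lie within Dleu2, a long non-coding RNA gene, 139 bases apart. Mir15b (chr3:69009775-69009796, plus strand) and Mir16-2 (chr3:69009918-69009939, plus strand) lie within Smc4, which encodes a condensin subunit, 143 bases apart. Both Mir16 genes give the same mature strand, so that the miR-16 assay cannot tell the clusters apart. Mir497 (chr11:70234730-70234751, plus strand) and Mir195a (chr11:70235062-70235082, plus strand) are 332 bases apart and overlap no other annotated gene than those of miRNAs. miR-103 comes from Mir103-1 within Pank3 (chr11:35782447-35782469, plus strand) and Mir103-2 within Pank2 (chr2:131288103-131288125, plus strand). miR-107 comes from Mir107 within Pank1 (chr19:34820700-34820722, minus strand).

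The deposited value is the CT, the PCR cycle at which the signal of an assay crosses a threshold, so that a lower CT means more RNA and, at full amplification, 1 cycle less means 2 times as much. Wells without a signal were listed at 40. The miRNAs detected below that limit numbered from 375 to 415 in EC-Dicerflox and from 402 to 407 in EC-DicerWT samples, and 350 miRNAs had a CT under 40 in all 6. EC-Dicerflox replicate 3 stood apart, with the lowest number detected and the highest median CT over these 350 miRNAs (28.2, against 26.4 to 27.5 in the others). Levels below are minus delta CT, on the log2 scale, set to 0 at the average of the control RNAs U6 and snoRNA135 in that sample. The endothelial markers miR-126-3p and miR-126-5p and the smooth muscle markers miR-143 and miR-145 were under 40 in all 6 samples. Of 6 striated muscle miRNAs, miR-1, miR-133a and miR-133b were also under 40 in all 6 samples, miR-208 in 3, and miR-208b and miR-499 in none.

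miR-16 was the most abundant of the 7 miRNAs by level. Its level was -0.11, -0.083 and 0.12 in EC-Dicerflox replicates 1, 2 and 3, and 0.006, -0.56 and 0.31 in EC-DicerWT replicates 1, 2 and 3. The highest and the lowest value were both EC-DicerWT, and the EC-Dicerflox samples lay between them. The mean was -0.027 ± 0.13 (SD, n = 3) in EC-Dicerflox and -0.080 ± 0.44 in EC-DicerWT, and miR-16 ranked 18th among the 350 miRNAs.

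miR-195 followed in every sample. Its level was -1.71, -1.73 and -1.72 in EC-Dicerflox and -1.76, -2.45 and -1.96 in EC-DicerWT (replicates 1, 2 and 3 here and below). The EC-Dicerflox samples had an SD of 0.0087 on the log2 scale (0.11 to 0.40 with the other control RNAs or references) and all lay above the EC-DicerWT samples, of which replicate 1 lay close below them. miR-497, made from the same cluster, was at -4.41, -4.50 and -4.74 in EC-Dicerflox and at -4.51, -4.97 and -5.23 in EC-DicerWT. For miR-497, EC-DicerWT replicate 1 lay within the EC-Dicerflox range, and replicates 2 and 3 lay below it.

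miR-15a and miR-15b, each made together with miR-16, were more variable. The level of miR-15a was -4.87, -4.14 and -3.07 in EC-Dicerflox and -4.30, -5.39 and -4.38 in EC-DicerWT. EC-Dicerflox replicate 3 was the highest and EC-DicerWT replicate 2 the lowest, and the groups overlapped. The level of miR-15b was -4.39, -3.95 and -4.67 in EC-Dicerflox and -3.70, -4.29 and -5.26 in EC-DicerWT. For miR-15b the EC-DicerWT samples spanned the whole range, with replicate 1 the highest and replicate 3 the lowest.

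With levels set to U6 and snoRNA135, miR-103 was the steadiest of the 7 miRNAs, whereas with snoRNA135 alone miR-497 was steadier. The level of miR-103 was -4.57, -4.38 and -4.46 in EC-Dicerflox and -4.38, -4.24 and -4.34 in EC-DicerWT, with an SD of 0.11 over all 6 samples. EC-Dicerflox replicates 1 and 3 lay below all EC-DicerWT samples, and replicate 2 lay level with EC-DicerWT replicate 1. miR-107, 1 base different, was the least abundant member and had the highest SD, 0.86 over the 6 samples. Without EC-Dicerflox replicate 3 its SD was 0.48, below those of miR-15b (0.60) and miR-15a (0.51). Its level was -7.92, -7.44 and -9.53 in EC-Dicerflox and -7.66, -7.12 and -8.39 in EC-DicerWT, with replicate 3 the lowest in both groups.

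**Figure D1:**
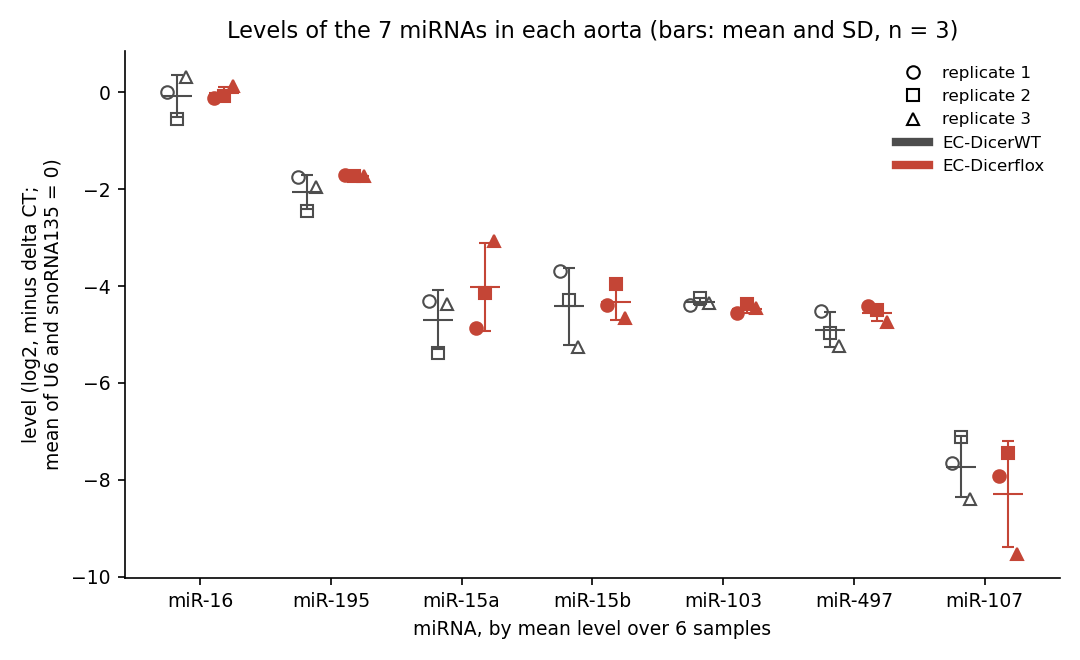
Level of each miRNA in each sample (y axis, minus delta CT on the log2 scale, with the mean of U6 and snoRNA135 at 0), with miRNAs on the x axis ordered by mean level; symbols are replicate numbers, colours are genotypes, and bars are the mean and SD of 3 samples. miR-16 and miR-195 lie above the other members in all 6 samples and miR-107 lies below them, whereas miR-15a, miR-15b, miR-103 and miR-497 overlap.

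The order of the members was compared by CT within each sample, which needs no control RNA but carries differences between assays. miR-16 crossed the threshold 1.84 ± 0.24 cycles before miR-195 (mean ± SD, n = 6), and miR-195 crossed 2.47 ± 0.63 cycles before miR-15a, both in 6 of 6 samples. At the other end, miR-497 preceded miR-107 by 3.28 ± 0.86 cycles in 6 of 6 samples. The 4 miRNAs between were not separated beyond their spread. miR-15a and miR-15b differed by 0.018 ± 1.02 cycles, miR-15b and miR-103 by 0.018 ± 0.56 cycles, and miR-103 and miR-497 by 0.33 ± 0.40 cycles.

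None of the 7 miRNAs passed the limma test between the genotypes. Over all 461 miRNAs detected in any sample, 0% had an adjusted p-value under 0.05, the smallest being 0.508 by limma with Benjamini-Hochberg adjustment, and 3.04% (14 miRNAs) had an unadjusted p-value under 0.05. The number with an adjusted p-value under 0.05 was 2 without EC-Dicerflox replicate 1 and 1 without EC-Dicerflox replicate 3, none of them a member. Of the 7 members, 0 had an unadjusted p-value under 0.05. Groups without overlap were found for 1 of 7 members (miR-195), and for 10.4% of all 461 miRNAs. The estimate was higher in EC-Dicerflox for 5 of 7 members (71.4%), and for 54.4% of all 461 miRNAs. Over the 350 miRNAs under 40 in every sample, the log2 fold change had a median of 0.10, and 3 of 7 members (miR-15a, miR-195 and miR-497) lay above it.

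The estimates of the branches lay on opposite sides of 0, a difference that was not tested. All 5 estimates of the miR-15/16 branch were above 0 (median log2 fold change of 0.34), and both of the miR-103/miR-107 branch were below 0 (median of -0.36), but those of miR-15b and miR-16 turned below 0 with snoRNA135 or snoRNA202 alone as the control RNA, and that of miR-16 with the controls of its own card. Leaving out 1 sample also turned miR-15b (-0.34 without EC-DicerWT replicate 3, -0.11 without EC-Dicerflox replicate 2), miR-16 (-0.19 without EC-DicerWT replicate 2, -0.019 without EC-Dicerflox replicate 3) and miR-107 (0.046 without EC-Dicerflox replicate 3). Relative to the median shift of 0.10, miR-15b and miR-16 were at -0.023 and -0.050. The largest estimate was that of miR-15a, with a log2 fold change of 0.67 (SE 0.59), a 95% interval of -0.82 to 2.15 and an adjusted p-value of 0.923 by limma. The interval spans a 0.567-fold to a 4.43-fold level. Leaving out 1 sample moved the estimate of miR-15a between 0.18 (without EC-Dicerflox replicate 3) and 1.09 (without EC-Dicerflox replicate 1), and without EC-Dicerflox replicate 3 those of miR-497 (0.45), miR-195 (0.34) and miR-15b (0.24) were larger.

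miR-195 and miR-497 gave nearly the same estimate. The log2 fold change was 0.34 for miR-195 (SE 0.28, 95% interval -0.37 to 1.04) and 0.35 for miR-497 (SE 0.29, 95% interval -0.39 to 1.09), each with an adjusted p-value of 0.923 by limma. The exact permutation test over the 6 samples, two-sided, gave p = 0.1 for miR-195, which is the smallest p that 3 samples against 3 allow, and p = 0.2 for miR-497. Between same-numbered samples, the difference was above 0 in 3 of 3 pairs for both, at 0.048, 0.72 and 0.24 for miR-195 and at 0.10, 0.47 and 0.49 for miR-497. Without EC-DicerWT replicate 2 the log2 fold change of miR-195 was 0.14, and without EC-DicerWT replicates 3 and 1 in turn that of miR-497 was 0.19 and 0.55. With U6 alone, snoRNA135 alone, snoRNA202 alone, or with levels taken against the mean or the median of all miRNAs, the groups overlapped for miR-195. miR-15b (log2 fold change 0.08, SE 0.48, 95% interval -1.14 to 1.30) and miR-16 (0.05, SE 0.31, 95% interval -0.74 to 0.84) had estimates well inside their standard errors.

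With U6 and snoRNA135 as the controls, miR-103 had the narrowest interval of the 7 members. This was not so with U6 alone, snoRNA135 alone or the mean of all miRNAs. The log2 fold change of miR-103 was -0.15 (SE 0.22, 95% interval -0.71 to 0.41, adjusted p-value of 0.923 by limma), a 0.903-fold level. The exact permutation p was 0.2. Each EC-Dicerflox sample was below the EC-DicerWT sample of the same replicate number, by differences of -0.18, -0.14 and -0.12. With snoRNA202 alone as the control RNA, the log2 fold change of miR-103 was -0.31 and all 3 EC-Dicerflox samples lay below all 3 EC-DicerWT samples. With U6 alone it was -0.065, and 1 EC-Dicerflox sample lay above and 1 below all EC-DicerWT samples. miR-107 had a log2 fold change of -0.57 (SE 0.67, 95% interval -2.26 to 1.12) and an exact permutation p of 0.6. Its differences between same-numbered samples were -0.26, -0.31 and -1.13, below 0 in 3 of 3 pairs. The log2 fold change of miR-107 was 0.046 without EC-Dicerflox replicate 3 alone, and -0.29 without both samples of that number.

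**Figure D2:**
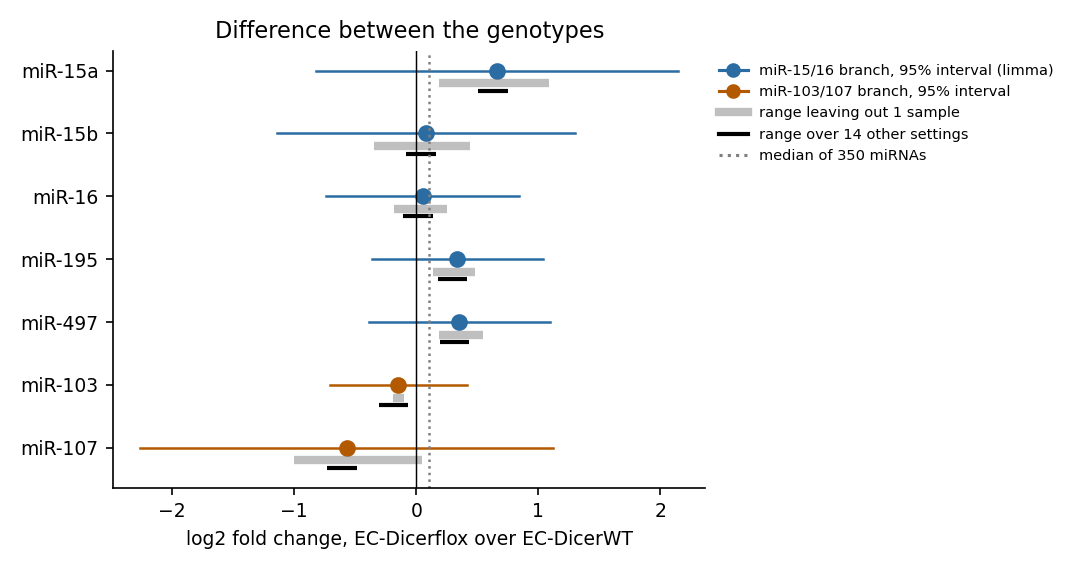
Log2 fold change of each miRNA, EC-Dicerflox over EC-DicerWT (x axis), with the 95% interval of limma (thin line), the range on leaving out 1 sample (grey bar) and the range over 14 other settings (black bar); the dotted line is the median of 350 miRNAs, 0.10. All 7 intervals include 0, both ranges of miR-15b and miR-16 cross it, and so does the range of miR-107 on leaving out 1 sample. Among the 14 settings, only changes of control RNA or reference could move an estimate.

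Marker miRNAs of other cell types were read in the same samples, with the range of EC-Dicerflox given before that of EC-DicerWT. Both endothelial markers, the 2 strands of miR-126, had groups without overlap (2 of 2, against 10.4% of all miRNAs), with the EC-Dicerflox levels above. Their summed level on the linear scale (control RNAs at 1) was 2.07 to 3.31 in EC-Dicerflox and 1.79 to 1.87 in EC-DicerWT, with 0 of 2 at an unadjusted p-value under 0.05. With U6 alone as the control RNA the groups overlapped for both strands, and with snoRNA135 or snoRNA202 alone for miR-126-3p. Against the median of all miRNAs they did not overlap for either strand. The sum of miR-143 and miR-145 was 19.7 to 47.0 and 18.7 to 28.5, and the highest EC-Dicerflox value was 20.5 without replicate 3, in which miR-145 had a CT of 14.8 (14.69 to 14.955 over all samples) and the control RNAs a mean CT of 20.2 (18.7 to 19.6 in the other samples). The sum of 4 leukocyte miRNAs was 0.538 to 0.851 and 0.690 to 1.25, with 3 of 4 estimates below 0 and 1 of 4, miR-142-5p, at an unadjusted p-value under 0.05 (3.04% of all miRNAs). The highest EC-DicerWT sum of these was 0.774 without replicate 2, and the lowest EC-Dicerflox sum was 0.789 without replicate 1. The sum of the 2 erythroid miRNAs measured was 0.216 to 0.427 and 0.187 to 0.615, that of 6 striated muscle miRNAs 1.03 to 1.38 and 1.02 to 1.12, and that of the liver miRNA miR-122 0.0044 to 0.284 and 0.0051 to 0.0555. For the erythroid sum, the highest EC-DicerWT value was 0.336 without replicate 1 and the lowest EC-Dicerflox value was 0.384 without replicate 3. For miR-122 the highest EC-Dicerflox value was 0.0252 without replicate 2. The part of these cell types in the values of the superfamily was not tested.

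EC-DicerWT replicate 2 held 5 of the 14 highest or lowest levels of the members, in opposite directions for the branches. In EC-DicerWT replicate 2, miR-15a, miR-16 and miR-195 had their lowest levels, at -1.03, -0.50 and -0.56 from their own means over the 6 samples. In the same sample, miR-103 and miR-107 had their highest levels, at 0.16 and 0.89 from their means. miR-497 was also below its mean there (-0.24), and miR-15b was close to it (0.088). In EC-Dicerflox replicate 3, miR-15a was at its highest (1.29 above its mean) and miR-107 at its lowest (-1.52), and the other 5 members lay between -0.29 and 0.17.

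The raw values of EC-Dicerflox replicate 3 set miR-15a apart. The CT of 6 of the 7 members was higher in that sample than in any other, as was the median CT of all miRNAs. For example, miR-16 had a CT of 20.1 there and 18.8 to 19.5 elsewhere, and miR-107 a CT of 29.8 there and 26.1 to 28.0 elsewhere. miR-15a instead had a CT of 23.3 there, within its range of 22.8 to 24.3 in the other samples.

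The gap between the branches was the mean CT of the 5 miRNAs of the miR-15/16 branch minus the mean CT of miR-103 and miR-107 in the same sample. It was -3.14, -3.03 and -4.18 cycles in EC-Dicerflox and -3.17, -2.15 and -3.06 cycles in EC-DicerWT. The miR-15/16 branch thus had the lower CT in 6 of 6 samples, and the groups overlapped. The mean gap was -3.45 ± 0.63 cycles in EC-Dicerflox and -2.79 ± 0.56 cycles in EC-DicerWT (SD, n = 3), a difference of -0.66 that was not tested. Leaving out 1 sample, this difference ranged from -0.87 (without EC-Dicerflox replicate 2) to -0.29 (without EC-Dicerflox replicate 3), and was -0.33 without EC-DicerWT replicate 2. Leaving out both samples of a number, it was -0.9965, -0.55 and -0.43 for numbers 1, 2 and 3. The extreme values were EC-Dicerflox replicate 3 and EC-DicerWT replicate 2. Against miR-103 alone, the gap was -1.47, -1.50 and -1.65 cycles in EC-Dicerflox and -1.53, -0.71 and -1.04 cycles in EC-DicerWT. Against miR-107 alone, it was -4.82, -4.56 and -6.71 cycles in EC-Dicerflox and -4.80, -3.59 and -5.09 cycles in EC-DicerWT, where EC-Dicerflox replicate 3 had the widest gap of the 6 samples.

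**Figure D3:**
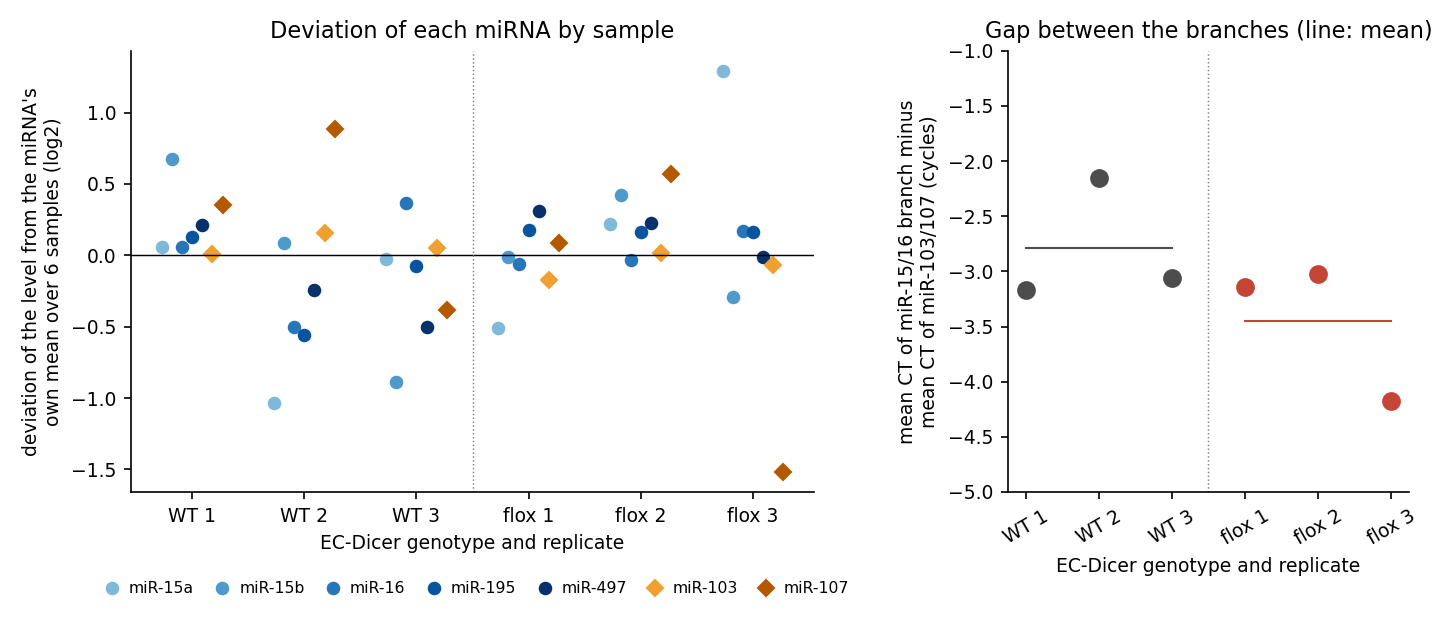
Left, deviation of each level from the miRNA's own mean over 6 samples (log2) by sample, with circles for the miR-15/16 branch and diamonds for miR-103 and miR-107; right, the CT gap between the branches in each sample (cycles), with lines at the group means. EC-DicerWT replicate 2 has the smallest gap (-2.15) and EC-Dicerflox replicate 3 the largest (-4.18), and the other 4 samples lie between -3.17 and -3.03.

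Members made from 1 cluster, or sharing a seed, were also compared with each other in each sample, in 4 pairs. The CT of miR-195 minus that of miR-497 was -2.704, -2.773 and -3.019 cycles in EC-Dicerflox and -2.756, -2.522 and -3.268 cycles in EC-DicerWT. The gap of this cluster differed between the groups by 0.017 cycles (exact permutation p = 1), and by -0.19 to 0.18 cycles on leaving out 1 sample. miR-15a followed miR-16 by 4.76, 4.06 and 3.18 cycles in EC-Dicerflox and by 4.31, 4.83 and 4.69 cycles in EC-DicerWT, a difference of -0.61 cycles (exact permutation p = 0.3) that was -0.20 without EC-Dicerflox replicate 3 and -0.99 without EC-Dicerflox replicate 1. For miR-15b and miR-16 the gap was 4.31 ± 0.46 and 4.34 ± 1.07 cycles (exact permutation p = 1), with a difference of -0.34 to 0.59 cycles on leaving out 1 sample.

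The CT of miR-103 minus that of miR-107 was -3.353, -3.059 and -5.064 cycles in EC-Dicerflox and -3.272, -2.885 and -4.052 cycles in EC-DicerWT. Replicate 3 had the widest gap in both groups, and the groups differed by -0.42 cycles (exact permutation p = 0.6). Between same-numbered samples the difference was -0.081, -0.17 and -1.01 cycles, with an exact sign-flip permutation p of 0.25, the smallest that 3 pairs allow. Without EC-Dicerflox replicate 3 the groups differed by 0.20 cycles. After Benjamini-Hochberg adjustment over the 4 pairs, every unpaired exact permutation p was 1.

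How steadily a pair of miRNAs kept its ratio was described by the SD of their CT difference over the 6 samples, where a small SD means a constant ratio. The steadiest pairs of members were miR-16 with miR-195 (0.24 cycles), miR-195 with miR-497 (0.26 cycles) and miR-16 with miR-103 (0.35 cycles). The least steady was miR-15a with miR-107 (1.57 cycles, and 0.84 without EC-Dicerflox replicate 3). A shared seed did not go with a steady ratio throughout: miR-103 with miR-107 had an SD of 0.81 cycles, and miR-15a with miR-15b 1.02 cycles. Without EC-Dicerflox replicate 3, the SD was 0.45 cycles for miR-103 with miR-107 and 0.74 cycles for miR-15a with miR-15b. The 11 pairs within a branch had a median SD of 0.62 cycles, and the 10 pairs across branches 0.77 cycles. Without EC-Dicerflox replicate 3, these medians were 0.45 and 0.53 cycles.

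For comparison, the median SD over all 50403 pairs that the 318 miRNAs under a CT of 35 in every sample can form was 0.73 cycles, against 0.63 over the 21 pairs of members. Of all these pairs, 40.8% had an SD below the median of the member pairs. All pairs share the 6 samples, and their depth, so that these values are descriptions. For miR-16, 11 of 311 other miRNAs were closer than its nearest member, miR-195. For miR-103 the number was 99 of 311, with miR-16 the nearest member.

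**Figure D4:**
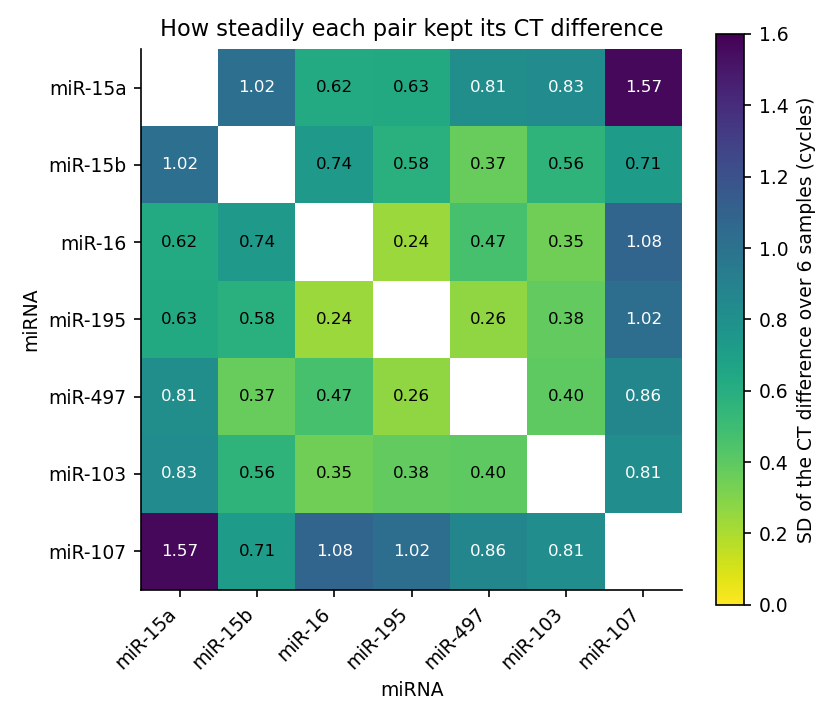
SD over 6 samples of the CT difference between each pair of members (cycles, colour and number), with the same miRNAs on both axes. The lowest value is that of miR-16 with miR-195 (0.24) and the highest that of miR-15a with miR-107 (1.57), and the 6 values of miR-107 lie between 0.71 and 1.57.

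Outside the superfamily, the miRNA of the 311 with the steadiest ratio was named for each member. miR-16 went with miR-340-5p (SD 0.10 cycles), miR-195 with miR-136 (0.11), miR-497 with miR-30d (0.12), miR-15b with miR-25 (0.11) and miR-103 with miR-301b (0.13). The median SD over the candidates was 0.45 to 0.64 cycles for these 5 members. miR-15a and miR-107 had less close partners, miR-449a (0.27) and miR-467c (0.22), with median SDs of 0.91 and 0.89. Without EC-Dicerflox replicate 3, the nearest miRNA was the same for miR-16 and miR-195 and another for the other 5 members, such as miR-24 in place of miR-301b for miR-103. The nearest to miR-15a was then miR-2146, at 0.0897 cycles, so that miR-15a no longer had a less close partner than the others. By the median absolute deviation in place of the SD, over all samples, the nearest miRNA was another for every member.

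Relatives outside the 7 miRNAs were read from a list of 12 names, of which 4 were on the array in 5 assays, all under 40 in every sample. Of these 5 assays, 3 had an estimate above 0 and 2 (miR-16* and miR-503) below 0 in EC-Dicerflox, and 0 had an unadjusted p-value under 0.05. The other strands of the hairpins, miR-15a* and miR-16*, had log2 fold changes of 0.26 (SE 0.30) and -0.24 (SE 0.71). The estimate of miR-16* was 0.30 without EC-Dicerflox replicate 3, 0.19 without EC-DicerWT replicate 1 and -0.76 without EC-Dicerflox replicate 2. That of miR-15a* was 0.11 without EC-Dicerflox replicate 2, 0.12 without EC-DicerWT replicate 3 and 0.42 without EC-Dicerflox replicate 3. The level of miR-15a* was -7.49 to -6.87 in EC-Dicerflox and -7.72 to -7.19 in EC-DicerWT. In EC-Dicerflox replicate 3, miR-15a* was the lowest of its group (-7.49), where miR-15a was the highest.

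miR-322 and miR-503 are made from a cluster on the X chromosome. Their sequences are shown to compare the seeds with that of miR-16.
miR-322-5p: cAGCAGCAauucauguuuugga
miR-503-5p: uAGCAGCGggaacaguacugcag

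miR-322-5p has the seed of the miR-15/16 branch, and miR-503-5p differs from it in the last seed base. The name miR-322 was given to 2 assays, and which strand each reads is not given in the sources used here. In the first, the level was -7.07, -5.62 and -6.65 in EC-Dicerflox and -7.22, -7.31 and -7.57 in EC-DicerWT, so that the groups did not overlap. Its log2 fold change was 0.93 (SE 0.44, adjusted p-value of 0.923 by limma). In the second assay the groups overlapped, with a log2 fold change of 1.29 (SE 0.87). Leaving out 1 sample gave 0.51 to 1.24 for the first assay (lowest without EC-Dicerflox replicate 2) and 0.49 to 1.87 for the second (lowest without EC-DicerWT replicate 3). miR-503 had a log2 fold change of -1.17 (SE 1.62) and was detected late, with a CT of 36.5 in EC-Dicerflox replicate 3 and 28.8 to 31.7 in the other samples. Its estimate was 0.59 without EC-Dicerflox replicate 3, -1.64 without EC-Dicerflox replicate 1 and -2.45 without EC-Dicerflox replicate 2.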

How the data were processed

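MiRNAs of 3 EC-Dicerflox and 3 EC-DicerWT aortas were measured on TaqMan MicroRNA cards after reverse transcription and pre-amplification with the Megaplex rodent pools. The authors deposited raw CT values, a score of PCR cycles on a reversed log2-like scale, without normalization and with 40 for no signal; how the threshold was set is not given in the sources used here. The labels call the mice male and the paper female.

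Delta CT was taken against the mean of U6 and snoRNA135 (4 wells). Genotypes were compared with limma 3.58.1 in R 4.3.3 (lmFit, eBayes) over the 461 miRNAs detected (CT below 40) in any sample, with Benjamini-Hochberg adjustment, and single values by exact two-sided permutation (20 arrangements). The model was tested on simulated data. Members and lists were chosen with earlier results of these data known. The named miRNAs are all members, the other strands of their hairpins, miRNAs of the same seed, miR-424 and miR-503, and for each member the miRNA with the smallest SD of the CT difference. Seeds and genes were read from RefSeq (GRCm38.p6). Cards were inferred from how assay numbers are written.

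Deviations from the group means were correlated between samples that carry 1 number. Over 350 miRNAs, the correlation was 0.150, 0.224 and 0.431 for numbers 1, 2 and 3. Correlations between unlike numbers are not given here, so that these values cannot show whether a number marks a pair. No label says what a number shares. The main limma fit and the exact two-sided permutation were unpaired. Numbers were taken as pairs in the replicate block, the sign-flip permutation, the differences between same-numbered samples and the omission of both samples of a number. Control RNAs, references, filters, the treatment of late wells, moderation, the replicate block and single samples were varied. The number of arrays limits the precision.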

Additional observations from a re-analysis of the deposited data

How the results depend on the processing

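No member reached an unadjusted p-value under 0.05 by limma in any of 14 alternatives or 6 fits without 1 sample. The estimates of miR-15a (0.50 to 0.75 over the alternatives), miR-195 (0.17 to 0.42), miR-497 (0.19 to 0.44), miR-103 (-0.31 to -0.065) and miR-107 (-0.73 to -0.49) kept their sign over the 14 alternatives. Filters, late wells, moderation and the replicate block could not change a member's estimate here, so that only the control RNA or reference could move it. With snoRNA135 alone, miR-15b was at -0.0028 and miR-16 at -0.030; with snoRNA202 alone they were at -0.081 and -0.11, and with controls of the same card miR-16 was at -0.0018. Leaving out 1 sample moved miR-15a between 0.18 and 1.09, miR-195 between 0.14 and 0.48, miR-497 between 0.19 and 0.55, miR-103 between -0.19 and -0.099, miR-15b between -0.34 and 0.44, miR-16 between -0.19 and 0.25, and miR-107 between -0.999 and 0.046. Leaving out both samples of a replicate number, chosen after seeing the data, moved miR-15a between 0.34 and 1.28, miR-195 between 0.14 and 0.48, miR-497 between 0.28 and 0.48, miR-103 between -0.16 and -0.13, miR-15b between -0.18 and 0.47, miR-16 between -0.16 and 0.18, and miR-107 between -0.72 and -0.29. In this balanced design the replicate block could change only the SE and the p-value of an estimate. With it no call of a member changed, while 15 miRNAs in all had an unadjusted p-value under 0.05, against 14 without it. That number was 9 with U6 alone, 24 with an ordinary linear model, and 12 to 22 without 1 sample. With snoRNA202 alone 77.8% of these calls were lower, against 64.3%, with the mean of all miRNAs 50%, and with the ordinary model 41.7%. The median shift of 350 miRNAs was 0.19 with U6 alone and -0.058 with snoRNA202 alone. The gap between the branches was -2.24 cycles with the median of the members of each branch. Without 1 sample, the difference in gap ranged from -0.99 to -0.20 cycles for miR-15a and miR-16, from -0.34 to 0.59 cycles for miR-15b and miR-16, from -0.19 to 0.18 for miR-195 and miR-497, and from -0.81 to 0.20 for miR-103 and miR-107. By the median absolute deviation, the nearest miRNA was at 0.0749 cycles for miR-15a, 0.103 for miR-15b, 0.0148 for miR-16, 0.0563 for miR-195, 0.0482 for miR-497, 0.0615 for miR-103 and 0.0830 for miR-107. For every member this was a different miRNA from that by the SD. Without EC-Dicerflox replicate 3, an alternative chosen after seeing the data, the nearest was miR-2146 for miR-15a (0.0897 cycles), miR-130b for miR-15b, miR-455 for miR-497, miR-24 for miR-103 and miR-1198 for miR-107. The cause of these changes was not tested.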
